A study of Rattus norvegicus with 52 samples.

Results

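The genes described here encode inhibitors of cyclin-dependent kinases (CDKs), the enzymes that carry a cell from one phase of its division cycle to the next. They were taken by symbol, as the named members of these families, from the count tables of sorted rat mammary cells. The rule uses no measured value, although the genes were chosen with earlier results of these data known. 8 genes were named, namely the CIP/KIP genes Cdkn1a (p21), Cdkn1b (p27) and Cdkn1c (p57), the INK4 genes Cdkn2a, Cdkn2b, Cdkn2c and Cdkn2d, and Cdkn3. Of these, 7 had a row among the 17356 genes of the tables, and Cdkn2d was not analysed here.

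CIP/KIP proteins bind a broad set of cyclin and CDK complexes and are known for holding cells out of division. INK4 proteins bind CDK4 and CDK6 and keep them from D-type cyclins, so that the retinoblastoma protein stays active. Cdkn3 encodes a phosphatase that removes the activating phosphate from CDKs, and its transcript is known to peak late in the cycle in dividing cells. In the mammary epithelium p27 has been used as a mark of quiescent hormone-responsive cells, which leads to the question put to the data, whether transcripts of the other inhibitors were higher where Cdkn1b had been mutated.

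RNA was sequenced from mammary cells of female rats, sorted by surface markers, in 48 libraries. The genotype experiments compared Cdkn1b-/- with Cdkn1b+/+ rats on the ACI strain, which forms mammary tumors under estrogen. At 9 weeks of age 4 fractions were sorted with 2 libraries per genotype each, namely basal/myoepithelial cells (Cd24+ Cd29HIGH), mature luminal cells (Cd24+ Cd29LOW Cd49b- PNA-), and 2 gates of luminal progenitors (LP), one by PNA, the peanut lectin, and one by Cd49b. At 4 and 6 weeks basal and luminal (Cd24+ Cd29LOW) cells were sorted, with 2 or 3 libraries per group. The study gives these as ranges of age, so age may differ within a group. At 6 weeks the titles of all +/+ rats carry 5.9 and those of the -/- rats 5.3 or 5.9. The titles do not say what these numbers are, and age may differ between genotypes there. A separate experiment gave estradiol (E2) or empty implants for 3 weeks to ACI and Brown Norway (BN) rats, with 2 ACI libraries and 1 BN library per arm and cell type. No Cdkn1b mutation was part of that last experiment.

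Limits of the groups as models follow from how they were made. The Cdkn1b mutations were made by CRISPR-Cas9 in Sprague-Dawley zygotes and then crossed to ACI, and glands for sorting came from intercrosses at both an early and a late backcross generation. Rats of the early one still carry Sprague-Dawley sequence over much of the genome, and sequence around the gene may differ by strain between genotypes as well as by mutation. The libraries used here are not labelled by generation. There were 2 deletion alleles, both in the first coding exon and both breaking the reading frame, and the libraries are not labelled by allele. Rats of both genotypes came from crosses of heterozygotes. The deletions leave most of the gene in place, so reads on Cdkn1b measured its remaining transcript and not the protein. Nothing in the labels says that libraries numbered 1 and 2 at 9 weeks came from separate animals, and p-values there measure the spread between libraries only. Each BN library carries the numbers of more than one animal in its title.

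The counts assigned to genes ranged from 7985619 to 33859550 per library, and 7716 to 15403 genes had at least 1 count. All values below are in CPM, a gene's counts scaled to the library's total of assigned counts, or log2 fold changes from edgeR's quasi-likelihood test with their standard error (SE). The fold changes also use TMM factors, which scale each library for its composition and ran from 0.789 to 1.193 at 9 weeks. CPM does not use them, and whether groups overlap is stated for CPM unless said otherwise. A gene was called where its p, adjusted by Benjamini-Hochberg over all genes tested in that comparison, was under 0.05. Basal and luminal sorts matched their labels on basal genes. The summed level of 10 such genes was 3086 to 37698 CPM in basal libraries and 115 to 3801 CPM in luminal ones. In each experiment the lowest basal library lay above the highest luminal one. LP and mature luminal are names of gates. In +/+ cells of 9 weeks hormone-sensing luminal genes summed to 325 to 463 CPM in LP and 146 to 150 CPM in mature luminal cells. Endothelial genes there summed to 507 to 1017 and 131 to 136 CPM. In -/- cells hormone-sensing genes summed to 145 to 201 and 48.5 to 239 CPM. Endothelial genes in -/- cells summed to 130 to 1195 and 73.5 to 100 CPM. The 7 libraries with the fewest genes, 7716 to 10444, were 2 of 6 weeks and 5 of the E2 experiment. In bulk samples fewer cells of a type and less RNA per cell cannot be told apart.

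Cdkn1b transcripts were lower in Cdkn1b-/- luminal progenitors of 9 weeks, in both gates. The +/+ libraries held 12.7 and 6.95 CPM in the Cd49b+ gate and 10.7 and 8.72 CPM in the PNA+ gate. The -/- libraries held 1.60 and 2.69 CPM in the Cd49b+ gate and 1.90 and 2.02 CPM in the PNA+ gate. Every -/- library lay below every +/+ library, and the log2 fold change was −1.95 (SE 0.26, edgeR adjusted p = 0.0021), in a comparison that called 3.4% of all genes. With the PNA+ and Cd49b+ counts of one number summed, which leaves 2 libraries per genotype, the value was −1.98 with an adjusted p of 0.26.

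The same direction held in the other 2 populations at 9 weeks without an edgeR call. Basal cells held 18.0 and 10.3 CPM of Cdkn1b in +/+ and 4.24 and 3.59 CPM in -/-, a log2 fold change of −1.59 (SE 0.37, adjusted p = 0.21). Mature luminal cells held 10.1 and 6.00 CPM in +/+ and 1.89 and 3.72 CPM in -/-, a log2 fold change of −1.37 (SE 0.37, adjusted p = 0.27). Neither pair of groups overlapped, and DESeq2 called both, at adjusted p = 0.0023 and 0.013. In the basal comparison edgeR called 0.0546% of genes and DESeq2 1.31%, and in the mature luminal one 0.133% and 1.28%. The genotype difference in Cdkn1b itself did not differ between populations beyond its error, at −0.36 (SE 0.44, adjusted p = 0.92) for LP against basal cells and −0.58 (SE 0.45, adjusted p = 1) for LP against mature luminal cells.

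At the younger ages no comparison called Cdkn1b. Basal cells of 4 weeks held 43.9, 16.7 and 24.4 CPM in +/+ and 8.84 and 12.9 CPM in -/-, without overlap, at −1.24 (SE 0.54, unadjusted p = 0.039, adjusted p = 1). Luminal cells of 4 weeks held 18.0, 17.8 and 15.6 CPM in +/+ and 15.2, 4.30 and 12.5 CPM in -/-, at −0.54 (SE 0.46, adjusted p = 0.85). The groups again did not overlap in CPM, although the highest -/- library lay close to the lowest +/+ one. After TMM scaling these luminal groups overlapped, with factors of 0.874 for -/- luminal library 1 and 1.116 for +/+ luminal library 3.

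In CPM, Cdkn1b went against the label in 1 library of 6 weeks. Basal cells held 22.5, 21.5 and 3.13 CPM in +/+ and 11.1 and 13.1 CPM in -/-, so that the library labelled +/+ basal 3, with 25 counts of Cdkn1b, was the lowest of the 5. The log2 fold change was −0.50 (SE 0.97, adjusted p = 0.95). That library also had 1 of the lowest numbers of genes detected, 10444. Luminal cells held 46.3 and 31.4 CPM in +/+ and 12.3 and 30.2 CPM in -/-, at −0.64 (SE 1.06, adjusted p = 0.79). The -/- luminal library 2, at 30.2 CPM, lay close to +/+ luminal library 2. After TMM scaling, with factors of 0.795 and 0.984, it lay above that library. The -/- luminal library 2 had 9241 genes detected, the fewest at 6 weeks. Genotype directions at 6 weeks are therefore those of the libraries as labelled.

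Cdkn3 was the only other gene of the 7 called between genotypes, and it was higher in Cdkn1b-/- luminal progenitors. The +/+ libraries held 1.64 and 0.89 CPM in the Cd49b+ gate and 1.48 and 0.68 CPM in the PNA+ gate. The -/- libraries held 2.39 and 5.3 CPM in the Cd49b+ gate and 2.40 and 4.11 CPM in the PNA+ gate. All 4 mutant libraries lay above all 4 wild-type ones, at a log2 fold change of 1.88 (SE 0.47, 95% interval 0.86 to 2.90, edgeR adjusted p = 0.046), and DESeq2 gave an adjusted p of 0.0021 where it called 8.56% of genes.

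The call sat close to the threshold. It was lost in 11 of 16 fits that each left out 1 library, with log2 fold changes from 1.69 to 2.06 and adjusted p from 0.058 to 0.15 among those 11. They were the fits without either -/- basal library, either +/+ mature luminal library, any of the 4 +/+ LP libraries, -/- Cd49b+ library 1 or either -/- PNA+ library. With the 2 LP gates summed by number the value was 1.86 with an adjusted p of 0.7.

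The sign of the Cdkn3 difference was higher in the mutant in all 7 genotype comparisons. They share no libraries but are not 7 independent observations. Basal and luminal libraries can come from the same rats, and at 9 weeks libraries of one number deviated together. The share of all genes with the same sign throughout was not counted. Basal cells of 9 weeks held 9.17 and 1.71 CPM in +/+ and 9.80 and 10.4 CPM in -/-, at 1.17 (SE 0.64, adjusted p = 0.62). Mature luminal cells held 1.67 and 1.18 CPM in +/+ and 1.81 and 5.74 CPM in -/-, at 1.51 (SE 0.66, unadjusted p = 0.04, adjusted p = 0.65). In both, the groups did not overlap but their nearest libraries lay close together. The genotype difference of Cdkn3 in LP exceeded that in basal cells by 0.71 (SE 0.78, adjusted p = 0.9) and that in mature luminal cells by 0.37 (SE 0.80, adjusted p = 1), neither beyond its error.

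At 4 weeks Cdkn3 ranged from 4.36 to 25.7 CPM. Basal cells held 7.19, 12.8 and 11.8 CPM in +/+ and 25.7 and 12.9 CPM in -/-, at 1.13 (SE 0.52, adjusted p = 1). Luminal cells held 4.36, 7.41 and 11.8 CPM in +/+ and 19.6, 9.72 and 15.5 CPM in -/-, at 1.12 (SE 0.48, adjusted p = 0.85). The luminal groups overlapped, and neither difference passed the test.

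The largest log2 fold changes of Cdkn3 among the 7 comparisons were those of 6 weeks. Basal cells held 2.09, 1.22 and 0 CPM in +/+ and 23.7 and 12.7 CPM in -/-, at 3.92 (SE 1.74, adjusted p = 0.55). Luminal cells held 0 and 1.37 CPM in +/+ and 16.6 and 37.4 CPM in -/-, at 5.43 (SE 2.21, 95% interval 0.48 to 10.37, adjusted p = 0.26). The groups stood apart in both cell types, with intervals that span several fold, and no edgeR call was made. DESeq2 called the luminal difference at adjusted p = 0.019, and so did edgeR with 4 and 6 weeks fitted together, at 5.39 with adjusted p = 0.03.

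Other values moved with Cdkn3 at 6 weeks. The summed level of 34 genes of S, G2 and M phase was 484 and 421 CPM in the +/+ luminal libraries and 1658 and 1194 CPM in the -/- ones. The -/- luminal library 2, with the highest Cdkn3, also held 3104 CPM of 8 fibroblast genes, 7083 CPM of 6 adipocyte genes and 1494 CPM of 8 endothelial genes, against at most 34, 20 and 10.1 CPM in the +/+ luminal libraries. The 6-week basal groups stood apart in markers as well, with fibroblast genes at 72.3 to 577 CPM in +/+ and 2388 to 3370 CPM in -/-, Schwann cell genes at 358 to 565 and 1943 to 3142 CPM, endothelial genes at 2.75 to 7.69 and 21.2 to 46.7 CPM, and basal genes at 6666 to 9633 and 14704 to 18482 CPM. The S, G2 and M phase genes summed to 591 to 1631 CPM in +/+ and 1133 to 1306 CPM in -/- basal libraries and overlapped. The part of these in the Cdkn3 differences was not tested.

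**Figure D1:**
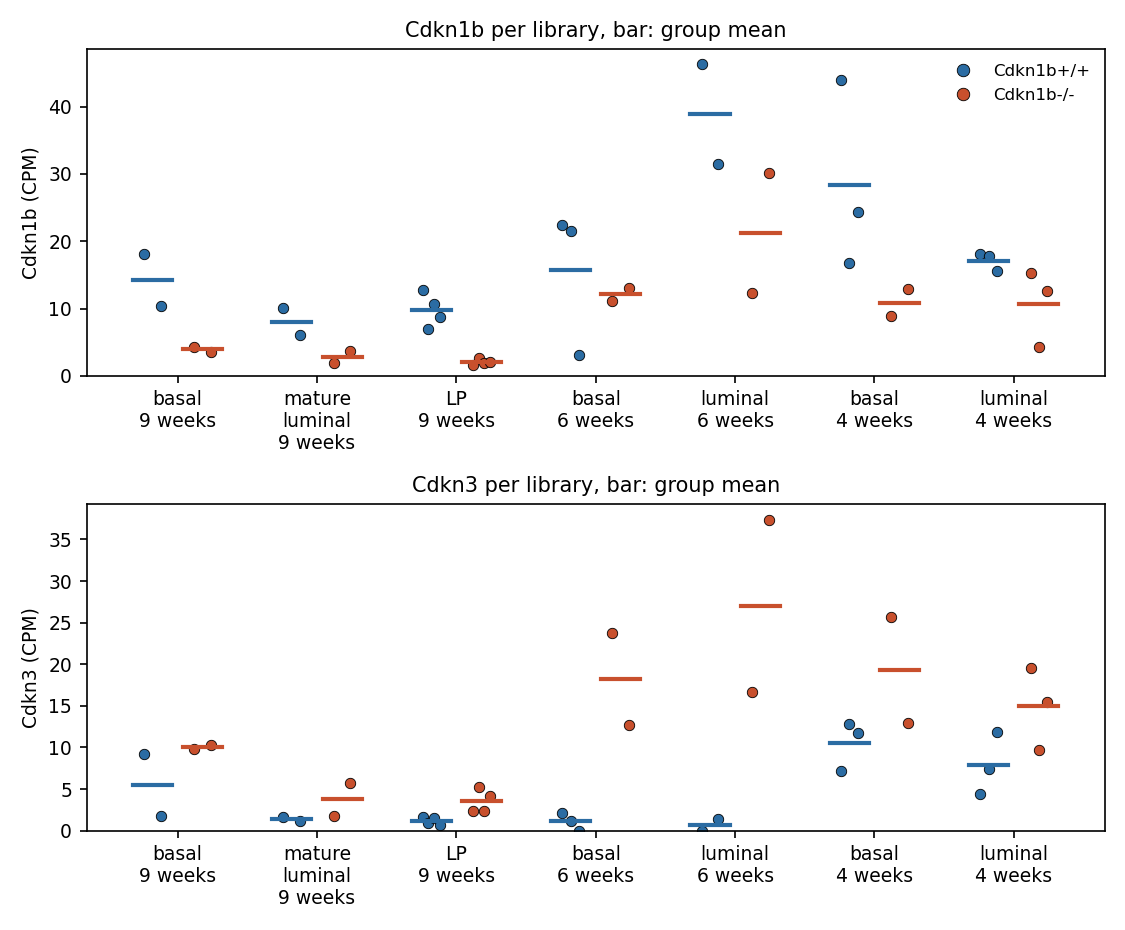
Cdkn1b (top) and Cdkn3 (bottom) in CPM for each genotype library, by population and age, with Cdkn1b+/+ in blue, Cdkn1b-/- in orange and a bar at each group's mean. Cdkn1b means were lower and Cdkn3 means higher in the mutant in all 7 places, and 1 wild-type basal library of 6 weeks sat at 3.13 CPM of Cdkn1b.

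The promoters of the 2 genes called between genotypes are shown because they differ in a pair of short motifs known from promoters of genes transcribed late in the cell cycle. CCAAT is the letter core bound by NF-Y, and TTTGAA is the core of the CHR element. Both were searched on both strands in the 250 bases before and 50 bases after each annotated start in RefSeq, build GRCr8, where 6 of the 7 genes had an entry. Capitals mark each match, written as the plus strand reads, so that ATTGG is CCAAT and TTCAAA is TTTGAA on the other strand. Cdkn1b lies at chr4:169491254-169491553 and Cdkn3 at chr15:22502136-22502435, both on the plus strand.
Cdkn1b: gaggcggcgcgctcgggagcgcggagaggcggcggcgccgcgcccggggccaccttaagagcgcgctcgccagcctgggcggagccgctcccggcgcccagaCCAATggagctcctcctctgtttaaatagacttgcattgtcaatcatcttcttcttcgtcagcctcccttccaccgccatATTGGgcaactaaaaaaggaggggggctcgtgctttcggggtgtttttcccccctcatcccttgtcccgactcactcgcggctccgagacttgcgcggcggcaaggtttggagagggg
Cdkn3: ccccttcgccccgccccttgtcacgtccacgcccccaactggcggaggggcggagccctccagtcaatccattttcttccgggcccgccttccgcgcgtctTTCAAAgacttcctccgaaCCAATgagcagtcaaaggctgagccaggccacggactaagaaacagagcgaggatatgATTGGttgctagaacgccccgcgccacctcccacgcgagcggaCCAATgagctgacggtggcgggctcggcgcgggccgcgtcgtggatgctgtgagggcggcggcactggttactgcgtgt

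With positions counted from the start and negative before it, the Cdkn3 window held CCAAT 3 times, beginning at −130, −72 and −29, and TTTGAA once, at −149. A second annotated start of Cdkn3 lay nearby, and its window held the same matches. The Cdkn1b window held CCAAT 2 times, at −148 and −68, and no TTTGAA. Among the other genes with an entry, Cdkn2b held TTTGAA once, and Cdkn1a, Cdkn2a and Cdkn2c held neither. Of 33469 promoters of the same length, 37.5% held CCAAT, 18.3% held TTTGAA and 7.41% held both. The narrower form in which Cdkn3 holds them, CCAAT at least 3 times with TTTGAA, was set after its window was seen and was found in 0.651%. Among 30 promoters of the S, G2 and M phase genes, 24 held CCAAT, 15 held TTTGAA, 12 held both and 4 held the narrower form. A match is a description of these letters, not a bound site.

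Cdkn1a, the p53-responsive inhibitor p21, was not called higher in any genotype comparison. In luminal progenitors of 9 weeks the +/+ libraries held 102, 37.5, 90.8 and 46.2 CPM and the -/- libraries 34.4, 23.9, 37.1 and 12.9 CPM. In CPM all mutant values lay below all wild-type ones. After TMM scaling the groups overlapped, with factors of 0.808 for -/- PNA+ library 1 and 1.136 for +/+ PNA+ library 2. The log2 fold change was −0.99 (SE 0.46, 95% interval −1.98 to −0.00), with an edgeR unadjusted p of 0.049, a level that 18.3% of genes met, and an adjusted p of 0.27.

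Mature luminal cells ran the same way, with 121 and 51.8 CPM in +/+ and 48.9 and 25.6 CPM in -/-, at −0.96 (SE 0.65, adjusted p = 0.9). In both genotypes, Cdkn1a was higher in the library numbered 1 than in the library numbered 2 in every population. Basal cells held 138 against 48.1 CPM in +/+ and 67.0 against 59.4 CPM in -/-. The -/- PNA+ gate held 37.1 against 12.9 CPM. The +/+ libraries numbered 1 held 865 to 1451 CPM of the S, G2 and M phase genes against 344 to 470 CPM in those numbered 2. In -/- LP the list ran the other way within 487 to 770 CPM, with both libraries numbered 1 below both numbered 2. The part of the split by number in the genotype difference was not tested. At 4 and 6 weeks the genotypes overlapped in Cdkn1a in both cell types, within 30.9 to 109 CPM and 46 to 165 CPM.

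**Figure D2:**
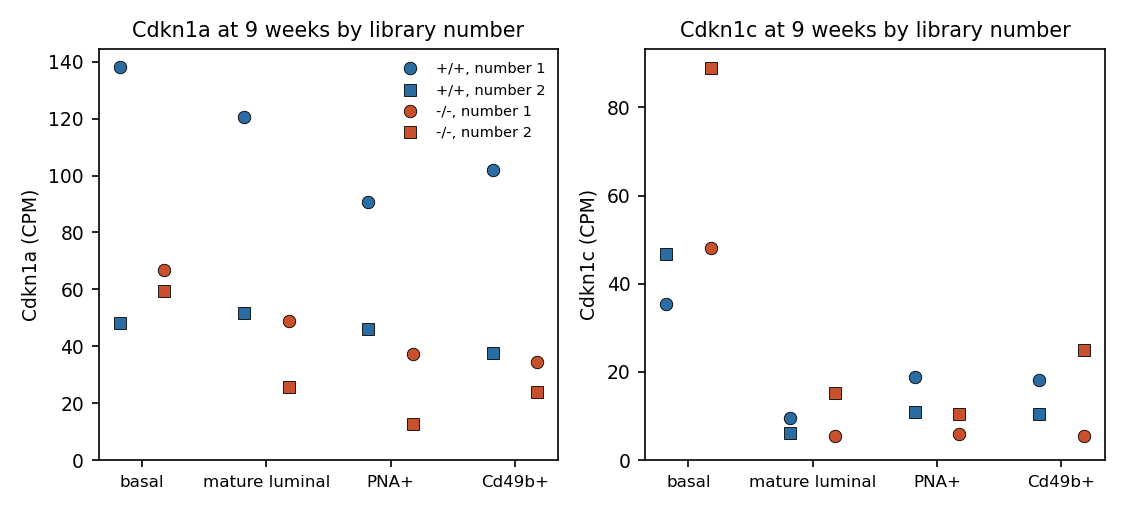
Cdkn1a (left) and Cdkn1c (right) in CPM at 9 weeks in each sorted fraction, with Cdkn1b+/+ in blue, Cdkn1b-/- in orange, circles for libraries numbered 1 and squares for libraries numbered 2. The +/+ libraries numbered 1 held 90.8 to 138 CPM of Cdkn1a, above all others, and Cdkn1c was highest in the basal fraction.

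Cdkn1c, whose product p57 binds cyclin and CDK complexes as p27 does, showed no genotype call. In LP the +/+ libraries held 18.1, 10.4, 18.9 and 11 CPM and the -/- libraries 5.55, 24.9, 5.92 and 10.5 CPM, and the log2 fold change was −0.10 (SE 0.40, 95% interval −0.95 to 0.76). The mutant libraries enclosed the wild-type range. Basal cells of 9 weeks held 35.4 and 46.7 CPM in +/+ and 48 and 89.0 CPM in -/-, at 0.97 (SE 0.56, adjusted p = 0.65). The basal groups did not overlap, but their nearest libraries lay close together.

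The INK4 genes gave no call between genotypes. Cdkn2c (p18) in LP held 4.59 to 7.03 CPM in +/+ and 4.24 to 6.85 CPM in -/-, at 0.32 (SE 0.25, 95% interval −0.21 to 0.85). Cdkn2b (p15) held 0.93 to 2.17 CPM in +/+ and 0.37 to 2.24 CPM in -/-, at 0.02 (SE 0.56, 95% interval −1.18 to 1.22). The Cdkn2b difference in LP changed sign with the filter and with single libraries and has no direction there. In luminal cells of 6 weeks both genes stood apart between genotypes without a call. Cdkn2c held 0 and 4.18 CPM in +/+ and 6.18 and 16.2 CPM in -/-, at 2.58 (SE 1.73, 95% interval −1.30 to 6.46, adjusted p = 0.48). Cdkn2b held 5.16 and 6.01 CPM in +/+ and 0.80 and 0 CPM in -/-, at −3.89 (SE 2.38, 95% interval −9.21 to 1.43, adjusted p = 0.43). The fibroblast, adipocyte and endothelial genes, higher in both -/- luminal libraries than in either +/+ one, moved with both, and their part was not tested. In the other comparisons of 4 and 6 weeks the genotypes overlapped in both genes.

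Cdkn2a gives both the INK4 protein p16 and, from another first exon, Arf, which gene counts cannot separate. It was near the limit of detection, with 0 counts in 28 of 48 libraries and under 10 counts in 44. In LP the +/+ libraries held 0, 0, 3 and 2 counts and the -/- libraries 0, 1, 0 and 2. The fitted difference of −0.53 carried an interval from −3.09 to 2.03, and a difference within that range was not detectable at this depth.

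**Figure D3:**
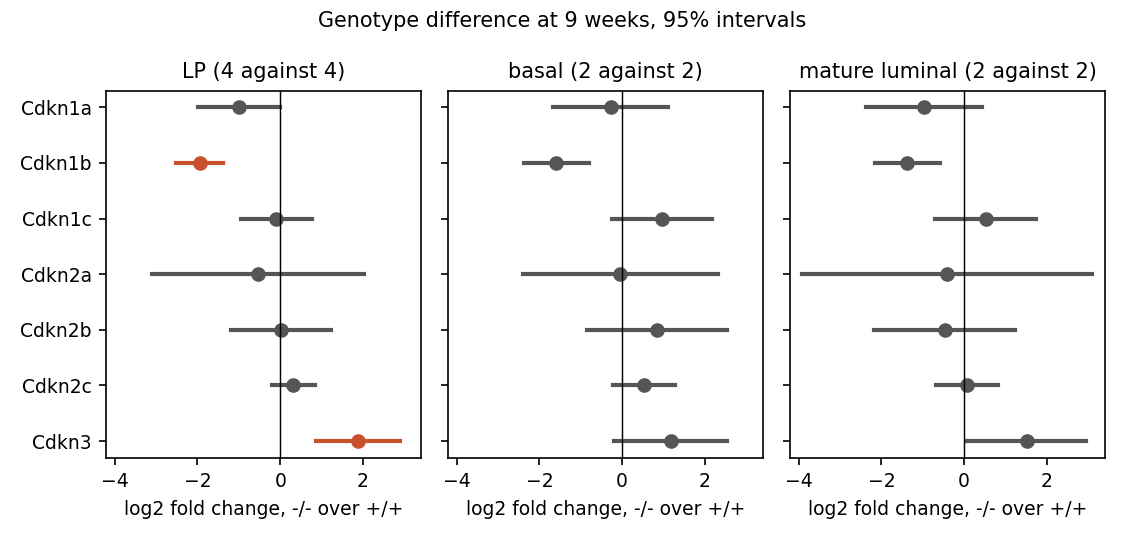
Log2 fold change of Cdkn1b-/- over Cdkn1b+/+ at 9 weeks for the 7 genes in LP, basal and mature luminal cells, with points for the edgeR estimate, lines for its 95% interval and orange for an adjusted p under 0.05. In LP Cdkn1b lay at −1.95 and Cdkn3 at 1.88, and the intervals of the other 5 genes reached 0 or crossed it.

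Over the 7 genotype comparisons, edgeR called Cdkn1b once and another member once. In basal and mature luminal cells of 9 weeks and at 4 and 6 weeks it called 0 members, with background shares at 4 and 6 weeks of 0% in all 4 comparisons. At an unadjusted p under 0.05 the members of 9 weeks were Cdkn1a, Cdkn1b and Cdkn3 in LP, Cdkn1b in basal cells, and Cdkn1b and Cdkn3 in mature luminal cells. Those of the younger ages were Cdkn1b in basal cells of 4 weeks, and Cdkn3 in luminal cells of 4 weeks and both cell types of 6 weeks. The share of all genes at that level was 18.3%, 9.09% and 7.15% in LP, basal and mature luminal cells of 9 weeks, 2.57% and 3.6% in basal and luminal cells of 4 weeks, and 8.99% and 16.4% in those of 6 weeks. DESeq2 called 2 members in LP beside 8.56% of genes, 1 in basal and 1 in mature luminal cells of 9 weeks, and 1 in luminal cells of 6 weeks beside 11.2% of genes. It called 0 members in basal cells of 6 weeks, beside 2.77% of genes, and in basal and luminal cells of 4 weeks, beside 0.00828% and 0%. No difference of genotype effect between the 3 populations of 9 weeks was called for any member by edgeR or DESeq2, with 0 members at an unadjusted p under 0.05, where edgeR called 0% of genes in all 3. For LP against basal cells, LP against mature luminal cells and basal against mature luminal cells, 7.23%, 1.75% and 4.39% of genes were at that level, and DESeq2 called 0.640%, 0% and 0.0390%.

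Genes around the inhibitors were read from fixed lists. In LP none of 14 CDK and cyclin genes was called, with a median log2 fold change of 0.05 beside 0.03 over all genes. None of 17 genes of p27 control and turnover was called, with a median of 0.12. None of 10 genes of the retinoblastoma and E2F families was called, with a median of 0.06.

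Of 20 p53 pathway genes, 1 was called higher and 2 lower in mutant LP, with a median of −0.02. Fas, a death receptor, was higher at 0.98 (SE 0.22), and Zmat3, an RNA-binding p53 target, and Btg2, an antiproliferative gene, were lower at −0.99 and −0.94. Of the 34 S, G2 and M phase genes, 3 were called, all higher, namely Cenpa at 2.41, Nusap1 at 1.87 and Plk1 at 1.86, which act at the centromere and the spindle. In all, 32 of the 34 were higher, with a median of 1.11. In the other 2 populations of 9 weeks none was called, with a median of 0.45 in mature luminal cells and −0.37 in basal cells. At 4 and 6 weeks none was called, with medians from 0.07 to 2.59. Few or no genes were called in these comparisons, 0.133% in mature luminal and 0.0546% in basal cells of 9 weeks and 0% at 4 and 6 weeks.

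Markers of other cells and of milk moved with genotype in LP. The summed level of 5 milk protein genes was 20624 to 61416 CPM in +/+ and 101869 to 181053 CPM in -/- LP, and Wap was called at 3.97 (SE 0.39). Endothelial genes summed to 507 to 1017 CPM in +/+ and 130 to 1195 CPM in -/-, fibroblast genes to 619 to 1605 and 183 to 1159 CPM, and adipocyte genes to 443 to 590 and 194 to 562 CPM. Myeloid genes summed to 293 to 767 CPM in +/+ and 516 to 1345 CPM in -/-, Schwann cell genes to 266 to 441 and 262 to 480 CPM, and lymphoid genes to 4.71 to 6.07 and 2.54 to 7.54 CPM. Basal genes summed to 462 to 1328 CPM in +/+ and 383 to 3801 CPM in -/-, luminal genes to 19076 to 33251 and 19253 to 30365 CPM, and hormone-sensing luminal genes to 325 to 463 and 145 to 201 CPM. The hormone-sensing genes stood lower in all 4 mutant libraries, and Tnfsf11 of that list and Col1a2 of the fibroblast list were at 0 throughout. The part of any of these in the Cdkn3 or Cdkn1a values was not tested.

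Between sorted populations of 9 weeks, Cdkn1c was called in all 4 comparisons of basal with luminal fractions, and it was higher in basal cells. At 9 weeks +/+ basal cells held 35.4 and 46.7 CPM against 9.61 and 6.24 CPM in mature luminal cells, at 2.22 (SE 0.59, adjusted p = 0.016). Against LP of the same genotype, at 10.4 to 18.9 CPM, the difference was 1.56 (SE 0.47, adjusted p = 0.022). In -/- rats the differences were 2.68 (SE 0.60, adjusted p = 0.0062) against mature luminal cells, at 5.56 and 15.3 CPM, and 2.63 (SE 0.47, adjusted p = 0.00092) against LP.

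The basal and luminal ranges of Cdkn1c did not overlap in any of these 4 comparisons. The last call held in every fit without 1 library. The others did not, since the +/+ calls were lost without basal library 2 (1.95 with adjusted p = 0.062 and 1.28 with adjusted p = 0.14). The call against +/+ mature luminal cells was also lost without either of their libraries (2.43 with adjusted p = 0.061 without library 1 and 2.02 with adjusted p = 0.11 without library 2), and that against +/+ LP without the Cd49b+ or the PNA+ library 2 (1.43 and 1.45, adjusted p = 0.056 in both). Without -/- mature luminal library 1 the -/- value was 2.22 with adjusted p = 0.055.

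Members called higher in basal than in mature luminal cells were 1 of 7 in +/+, where 20.9% of all genes were called in either direction, and 2 of 7 in -/-, where 23.7% were. Against LP they were 3 of 7 in +/+, beside 30.9% of genes, and 5 of 7 in -/-, beside 36.3%, with Cdkn2a, which passed the filter on low counts only through basal libraries, among both. Between LP and mature luminal cells edgeR and DESeq2 called none in either genotype, with 0 members at an unadjusted p under 0.05, beside 11% of genes called by edgeR in +/+ and 0% in -/-. DESeq2 called 19.8% and 4.72% of genes there, and 28.7% and 17.6% were at an unadjusted p under 0.05. Between the PNA+ and Cd49b+ gates none of 6 members was called by edgeR or DESeq2, none had an unadjusted p under 0.05, and edgeR called 0% of genes. DESeq2 called 0.350% of genes between the gates, and 3.05% were at an unadjusted p under 0.05.

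Libraries of one number deviated together across these populations, and the fit with the number as a block made 17 calls in place of 11. The added calls were Cdkn1b at 0.57 (adjusted p = 0.036) and Cdkn2c at 0.74 (adjusted p = 0.036) for basal over LP in +/+, Cdkn3 at 1.43 (adjusted p = 0.021) for basal over mature luminal cells in +/+, Cdkn1a at 0.78 (adjusted p = 0.032) and Cdkn3 at 1.53 (adjusted p = 0.01) for basal over mature luminal cells in -/-, and Cdkn1a at 1.35 (adjusted p = 0.0003) for basal over LP in -/-. All were higher in basal cells. That fit called 50.0% and 38.1% of all genes for basal cells over LP and over mature luminal cells in +/+, and 53.3% and 42.5% in -/-.

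Cdkn3 was higher in basal cells than in LP in both genotypes. The +/+ difference was 2.25 (SE 0.54, adjusted p = 0.0071), from basal values of 9.17 and 1.71 CPM against 0.68 to 1.64 CPM. It rested on +/+ basal library 1, without which it was 0.68 with adjusted p = 0.41, and that library also held 1451 CPM of the S, G2 and M phase genes against 470 CPM in library 2. The -/- difference was 1.54 (SE 0.53, adjusted p = 0.035), from 9.80 and 10.4 CPM against 2.39 to 5.3 CPM, without overlap. It was lost in 6 fits without 1 library, at 1.41 to 1.64 with adjusted p from 0.051 to 0.14, namely those without either -/- basal library, either -/- PNA+ library, -/- Cd49b+ library 1 or +/+ mature luminal library 1.

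Cdkn2c was higher in -/- basal cells, at 11.1 and 11.8 CPM, than in -/- mature luminal cells, at 3.02 and 6.64 CPM (1.2, SE 0.35, adjusted p = 0.025), and than in -/- LP, at 4.24 to 6.85 CPM (0.95, SE 0.29, adjusted p = 0.021). The call over mature luminal cells was lost without basal library 1 (1.23, adjusted p = 0.083), basal library 2 (1.18, adjusted p = 0.093) or mature luminal library 1 (0.85, adjusted p = 0.17), and with only the compared libraries fitted (1.19, adjusted p = 0.11). The call over LP was lost without basal library 1 (0.98, adjusted p = 0.083), basal library 2 (0.93, adjusted p = 0.11) or PNA+ library 2 (0.83, adjusted p = 0.054). In +/+ the difference over LP was 0.74 (SE 0.29, adjusted p = 0.069), from 11.5 and 7.44 CPM.

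What remained of Cdkn1b transcript in the mutant was higher in basal cells, at 4.24 and 3.59 CPM, than in LP, at 1.60 to 2.69 CPM (0.94, SE 0.31, adjusted p = 0.029). That call was lost without basal library 1 (0.80, adjusted p = 0.17), basal library 2 (1.08, adjusted p = 0.075), Cd49b+ library 1 (0.86, adjusted p = 0.07) or PNA+ library 2 (0.95, adjusted p = 0.054), and with only the compared libraries fitted (0.87, adjusted p = 0.055). In +/+ the populations overlapped, and the difference was 0.59 (SE 0.30, adjusted p = 0.16).

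Cdkn2a was counted mostly in basal cells at 9 weeks, with 16 and 4 counts in +/+ and 10 and 5 counts in -/- basal libraries against 0 to 3 counts in each of the 12 luminal libraries. It passed the filter on low counts through the basal libraries, where it is high, so the edgeR calls for basal over LP (adjusted p = 0.046 in +/+ and 0.03 in -/-) are no independent support for a difference. The +/+ call was also lost without the filter and by DESeq2, with an adjusted p of 0.068 in both, and in 8 of 16 fits without 1 library, and the -/- call in 4. These were the fits without either -/- basal library for both, without +/+ basal library 1, either +/+ Cd49b+ library, either +/+ mature luminal library or +/+ PNA+ library 2 for the first, and without -/- Cd49b+ library 1 or -/- PNA+ library 1 for the second.

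At 4 weeks Cdkn1c separated the lineages, with 231, 255 and 240 CPM in +/+ basal cells and 24.8, 12.5 and 14.4 CPM in +/+ luminal cells, at 3.81 (SE 0.42, adjusted p = 3.4e-05). It was the only member called of 6 tested, in a comparison that called 23.5% of genes. Cdkn2b ran the other way without an edgeR call, from 0.05, 0.63 and 0 CPM in basal cells to 1.93, 0.96 and 1.65 CPM in luminal cells, at −2.69 (SE 1.07, adjusted p = 0.092). DESeq2 called it at adjusted p = 0.035, beside 28.5% of genes, and without +/+ basal library 2 edgeR gave −5.56 with adjusted p = 0.0074.

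At 6 weeks +/+ basal cells held 68.3, 66.9 and 73.5 CPM of Cdkn1c and +/+ luminal cells 17.0 and 25.4 CPM, at 1.77 (SE 0.52, unadjusted p = 0.007, adjusted p = 0.12). The groups stood apart, but edgeR called 0 of 6 members where it called 2.43% of genes, and 1 member, Cdkn1c, had an unadjusted p under 0.05, as 17.3% of genes did. DESeq2 called Cdkn1c at adjusted p = 0.0021, beside 12.8% of genes, and edgeR called it without -/- luminal library 2 (1.83, adjusted p = 0.044) or without both of the libraries with the fewest genes (1.75, adjusted p = 0.021). Cdkn2c was higher in basal cells, at 15.7, 10.3 and 59.6 CPM against 0 and 4.18 CPM, without a call (3.78, SE 1.77, adjusted p = 0.31). The 59.6 CPM was that of +/+ basal library 3, which had 10444 genes detected and went against its label for Cdkn1b.

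In the E2 experiment the 6 basal libraries held 132 to 199 CPM of Cdkn1c and the 6 luminal libraries 6.77 to 51.1 CPM, at 2.62 (SE 0.40, adjusted p = 0.011), the only call among 7 members where 1.96% of genes were called. The ranges did not overlap in either strain or treatment. Without its 5 libraries with the fewest genes the value was 2.18 with adjusted p = 0.058.

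**Figure D4:**
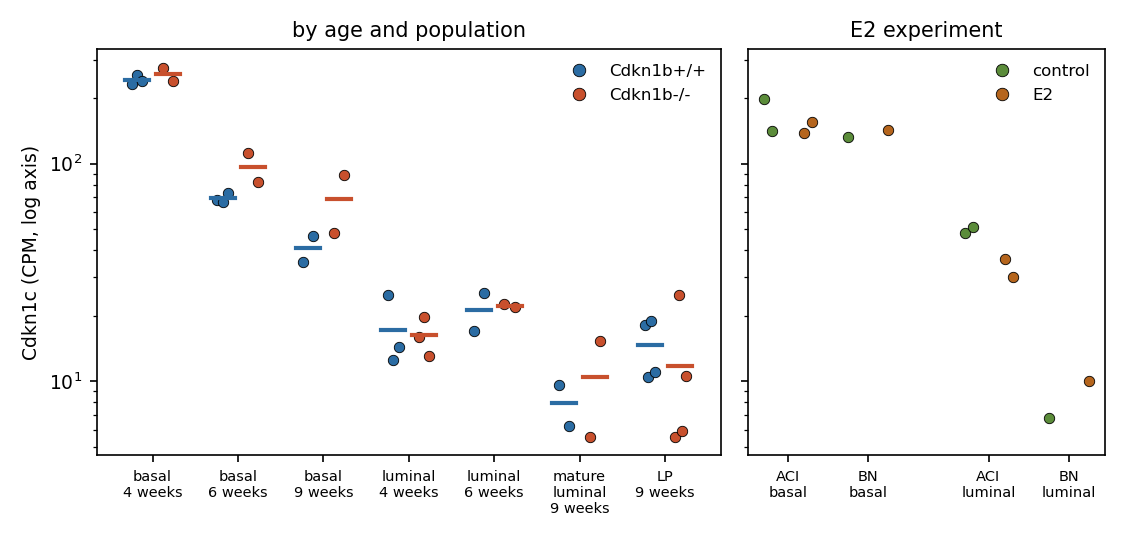
Cdkn1c in CPM per library on a log axis, by population and age in Cdkn1b+/+ (blue) and Cdkn1b-/- (orange) with bars at group means on the left, and by strain, cell type and implant in the E2 experiment on the right. Basal libraries lay above luminal ones of the same experiment throughout, and +/+ basal values ran from 231 to 255 CPM at 4 weeks to 35.4 and 46.7 CPM at 9 weeks.

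Cdkn1c in +/+ basal cells was lower in the libraries of 6 weeks and of 9 weeks than in those of 4 weeks. The 6-week libraries lay 1.68 log2 units below those of 4 weeks (−1.68, SE 0.28, adjusted p = 0.011), and the 9-week ones 2.49 below (−2.49, SE 0.34, adjusted p = 0.026), without overlap between any 2 ages. From 6 to 9 weeks the difference was −0.80 (SE 0.31, adjusted p = 0.11). Each age was a separate experiment, so age and experiment cannot be told apart. In the E2 experiment, whose implants were placed at 9 weeks of age, the ACI control basal libraries held 199 and 141 CPM. These lay above all +/+ basal libraries of 6 and 9 weeks. Markers moved with age in the same +/+ basal libraries. Basal genes summed to 17258 to 19385 CPM at 4 weeks, 6666 to 9633 CPM at 6 weeks and 22788 to 29858 CPM at 9 weeks, and fibroblast genes to 1232 to 6460, 72.3 to 577 and 628 to 2886 CPM. Milk protein genes summed to 45.3 to 122, 12.3 to 104 and 4434 to 6731 CPM, endothelial genes to 13.2 to 23.8, 2.75 to 7.69 and 107 to 203 CPM, and adipocyte genes to 7.99 to 14, 0.562 to 5.74 and 148 to 192 CPM. From 4 to 6 weeks 6 of 10 basal and 5 of 7 fibroblast genes tested were called lower, Krt5, a basal keratin, at −1.78 and Col1a1, a collagen, at −4.40 among them. The part of these in the Cdkn1c values was not tested.

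Among 6 members tested over ages in basal cells, Cdkn1c was the only one called from 4 to 6 weeks, beside 9.53% of genes, and from 4 to 9 weeks, beside 0.379%. From 6 to 9 weeks edgeR and DESeq2 called 0 members, beside 13.8% of genes for edgeR, and 1 had an unadjusted p under 0.05, as 30.9% of genes did, while DESeq2 called 25.9%. The 4 to 6 week call was lost without +/+ basal library 2 of 4 weeks (−1.69, adjusted p = 0.061). The 4 to 9 week call was lost without any 1 of the 5 libraries it compares (−2.72 to −2.21, adjusted p 0.12 to 0.2), namely +/+ basal libraries 1 and 2 of 9 weeks and 1, 2 and 3 of 4 weeks.

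The -/- basal libraries followed the same order of ages without a test. They held 276 and 241 CPM of Cdkn1c at 4 weeks, 111 and 82.1 CPM at 6 weeks and 48 and 89.0 CPM at 9 weeks. The 6- and 9-week mutant libraries overlapped.

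Cdkn3 was lower at 6 than at 4 weeks in +/+ cells of both lineages, without an edgeR call. In basal cells the difference was −3.16 (SE 1.21, adjusted p = 0.11), with DESeq2 at adjusted p = 0.013 beside 24.2% of genes, and without +/+ basal library 3 of 6 weeks edgeR called it at −2.62 (adjusted p = 0.032). In luminal cells it was −3.33 (SE 1.34, adjusted p = 0.13), with DESeq2 at adjusted p = 0.024. Without +/+ luminal library 2 of 6 weeks the adjusted p was 0.01, with 1 library of 0 counts left for that age, assumed to vary like the other groups, and no fold given.

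Cdkn1b and Cdkn2b stood higher in +/+ luminal cells of 6 weeks than of 4 weeks, without an edgeR call. Cdkn1b went from 15.6 to 18.0 CPM at 4 weeks to 46.3 and 31.4 CPM at 6 weeks, at 1.2 (SE 0.33, adjusted p = 0.056), and Cdkn2b from 0.96 to 1.93 CPM to 5.16 and 6.01 CPM, at 1.90 (SE 0.70, adjusted p = 0.11). Neither pair of groups overlapped. DESeq2 called both, at adjusted p = 0.0065 and 0.047 beside 29.0% of genes. Without +/+ luminal library 2 of 6 weeks edgeR gave Cdkn1b 1.38 with adjusted p = 0.026, a fit in which 1 library stands for 6 weeks and is assumed to vary like the other groups. edgeR called 0 of 6 members here, beside 13.7% of genes, with 3 at an unadjusted p under 0.05, as 34.2% of genes were.

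With E2, between strains, and for the difference of the E2 effect between strains, edgeR and DESeq2 called 0 of 7 members in either cell type, and edgeR called 0% of genes in all 6 comparisons. For E2, strain and their interaction in turn, DESeq2 called 0.807%, 0.163% and 2.67% of genes in basal and 1.03%, 3.15% and 3.55% in luminal cells. At an unadjusted p under 0.05 were 1.45%, 0.742% and 3.13% of genes in basal and 3.45%, 4.03% and 5.71% in luminal cells. The only member there was Cdkn1a, in the interaction in basal cells. Controls held 50.1 and 77.5 CPM in ACI and 406 CPM in the 1 BN basal library, and E2 libraries 39.0 and 64.8 CPM in ACI and 37.3 CPM in BN. The value of 3.41 (SE 0.95, unadjusted p = 0.014, adjusted p = 1) rests on that BN control library, which also held 2169 CPM of adipocyte genes and 788 CPM of endothelial genes against at most 509 and 506 CPM in the ACI control basal libraries. Their part in it was not tested.

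Over both strains, basal cells differed with E2 by −1.38 (SE 0.84, adjusted p = 1) in Cdkn1a and by −1.10 (SE 0.80, adjusted p = 1) in Cdkn1b. Cdkn1b held 36.3, 29.1 and 42.8 CPM in control and 11.5, 32.6 and 12.9 CPM in E2 basal libraries, which overlapped. The E2 libraries at 11.5 and 12.9 CPM had 7716 and 10131 genes detected, among the fewest, and the control library at 29.1 CPM had 10391. The E2 library at 32.6 CPM had 11717. In luminal cells it held 14.0, 10.6 and 8.01 CPM in control and 16.6, 16.9 and 9.26 CPM with E2, with BN the lowest in both arms.

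Between strains, luminal Cdkn1c stood at 30.3 to 51.1 CPM in the 4 ACI libraries and 6.77 and 10.0 CPM in the 2 BN libraries, a difference of 1.73 (SE 0.81, unadjusted p = 0.071, adjusted p = 0.99). Cdkn1a was lower in the 4 ACI luminal libraries, at 33.2 to 50.0 CPM, than in BN, at 71.8 and 50.1 CPM, with a difference of −1.01 (SE 0.49, adjusted p = 0.99). Neither pair of strains overlapped, and the fits had few libraries, with 1 BN library per arm.

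Across all 48 libraries each member was set against 9464 genes by Pearson's r of log2 CPM after each experiment's mean was subtracted. Differences between experiments, those of age among them, were thus taken out. The r values are a description, since libraries share population and depth. Cdkn1c ran most like Pdgfa (r = 0.92), Col17a1 (0.89) and Sema5a (0.88), and Cdkn2c most like Rdh14 (0.86), Mphosph9 (0.85) and Kdelc1 (0.84). For Cdkn3 the 3 genes were Ccbl1 (0.80), Tmem98 (0.79) and Gsdmd (0.79), and for Cdkn1a Rpl15 (0.75), Dynll1 (0.74) and Nme2 (0.71). Weaker likeness was found for Cdkn2b, to Slc16a11 (0.67), Rgs20 (0.65) and Smg6 (0.62), for Cdkn1b, to Myo9a (0.62), Prph (0.59) and Klhl11 (0.58), and for Cdkn2a, to Gpx2 (0.55), Map2k2 (0.54) and Rnf187 (0.54). Between members r ran from −0.35 for Cdkn1c and Cdkn2b to 0.53 for Cdkn2c and Cdkn3, and was −0.05 for Cdkn1b and Cdkn3.

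Cdkn3 was then laid against the summed level of the S, G2 and M phase genes, a list it is not part of. Within a genotype of 9 weeks the pair of LP libraries with more of the list held more Cdkn3 than the pair with less. The mature luminal library with more of the list also held more Cdkn3. In LP each pair shared its library number, and the gates of one number may come from the same cells. The +/+ LP libraries with 894 and 953 CPM of the list held 1.48 and 1.64 CPM of Cdkn3, and those with 440 and 455 CPM held 0.68 and 0.89 CPM. The -/- LP libraries with 695 and 770 CPM held 4.11 and 5.3 CPM, and those with 487 and 511 CPM held 2.40 and 2.39 CPM. In basal cells +/+ library 1, with 1451 CPM of the list, held 9.17 CPM of Cdkn3 and library 2, with 470 CPM, held 1.71 CPM. Between genotypes the order differed, since the -/- LP libraries of the lower list levels held more Cdkn3 than the +/+ ones of the higher. The summed level is weighted to abundant genes. Gene by gene, most of the list was higher in -/- LP, as given above. At 6 weeks the library labelled +/+ basal 3 held 1631 CPM of the list with 0 counts of Cdkn3, and the -/- luminal libraries held 16.6 CPM of Cdkn3 at 1658 CPM of the list and 37.4 CPM at 1194 CPM. The part of the list's level in the Cdkn3 genotype differences was not tested.

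**Figure D5:**
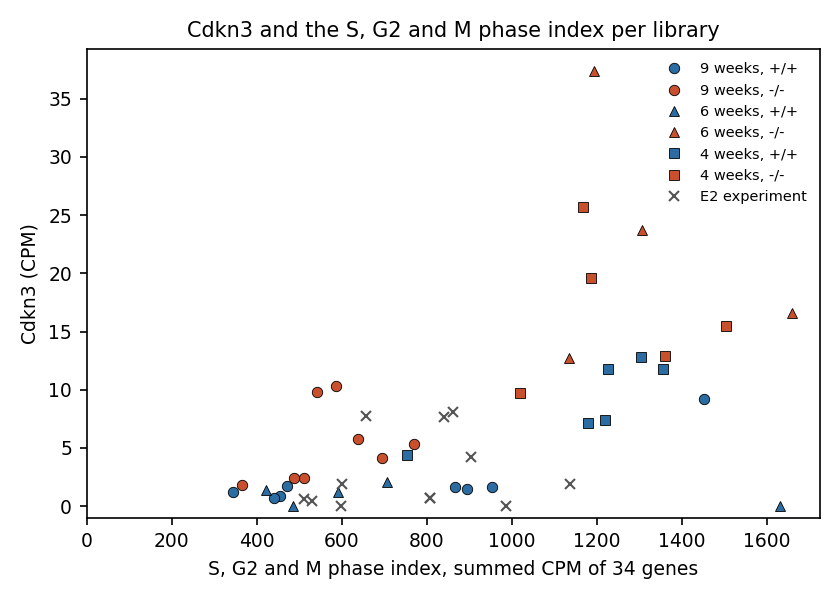
Cdkn3 in CPM against the summed CPM of 34 S, G2 and M phase genes, 1 point per library, with shape for the experiment and blue for Cdkn1b+/+, orange for Cdkn1b-/- and gray crosses for the E2 experiment. The highest Cdkn3 values, 16.6 to 37.4 CPM, were all in Cdkn1b-/- libraries of 4 and 6 weeks, and 1 wild-type library lay at 0 with 1631 CPM of the list.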

How the data were processed

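RNA was measured by sequencing of sorted mammary cells in 48 libraries. Per the labels and the study's methods the authors made libraries with a low-input SMARTer kit, sequenced single-end reads, checked them with FastQC, aligned them with STAR 2.5.1b to rn6 and counted reads per gene with HTSeq, and the deposited values are raw counts. HTSeq's rows that name no gene held 47.1% to 77.0% of a library's reads and stayed out of all totals, mostly reads that did not align uniquely (34.8% to 57.0%). HTSeq's strand setting is not given in the sources used here. Reads shared with near-identical copies would be dropped by such counting.

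Counts were tested with edgeR 4.0.16 in R 4.3.3 (TMM scaling, filterByExpr by group, quasi-likelihood F test, Benjamini-Hochberg over all genes tested, threshold 0.05), in 30 comparisons, 7 of them between genotypes. Genes tested numbered 11048 to 13335. The 16 libraries of 9 weeks were fitted together, with PNA+ and Cd49b+ as LP as in the study, and each other experiment by itself. At 9 weeks the PNA+ and Cd49b+ libraries of one number may come from the same cells, so 4 LP libraries per genotype are not known to be 4 independent samples. Cdkn2a passed the filter on low counts in 19 of the 30 comparisons and the other 6 members in all. The script was tested on simulated data. No 2 libraries held identical values. CPM is counts over assigned counts. Log2 CPM for correlations used a prior count of 2. For likeness between genes each experiment's mean was subtracted, and the genes set against the members had a mean log2 CPM above 1.

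Numbers 1 and 2 at 9 weeks paired populations within a genotype (r of deviations from group means 0.24 to 0.77 in 24 of 24 pairs, all over 0.1) and did not pair genotypes (−0.27 to 0.01 in 8 pairs). With 2 libraries per group the deviations mirror each other, so the pairs numbered 1 and 2 give the same r. The 24 and 8 pairs therefore hold each value 2 times and are not separate observations. Titles name the animal for basal and luminal cells of 4 weeks (r 0.10 to 0.56), 6 weeks (−0.00 to 0.10) and the E2 experiment (0.08 to 0.22).

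The members and gene lists were chosen with earlier results of these data known. Named are all members, the 3 genes most like each over 48 libraries, and up to 3 called genes of lowest p per list. Alternatives were RLE scaling, leaving the filter out, requiring 10 counts throughout, DESeq2 1.42.0, only the compared libraries, blocks, LP gates summed, ages together and each library left out, where a library left alone in its group was assumed to vary like the other groups. Chosen after seeing the data were the fits without the 7 libraries of fewest genes and with crossed numbers. The deposited progesterone receptor peak lists were not used here.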

Additional observations from a re-analysis of the deposited data

Results flagged for a closer look

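Cdkn1b in +/+ rats differed between lineages in opposite directions at 6 and 9 weeks. At 6 weeks basal minus luminal was −1.23 (SE 0.95, adjusted p = 0.55), with all 3 basal libraries below both luminal ones. At 9 weeks basal minus mature luminal was 0.65 (SE 0.36, adjusted p = 0.23), with both basal libraries above both mature luminal ones. It drew attention because the groups stood apart in both and with opposite sign, and the difference was not tested. The luminal gates differ between the ages, and the 6-week basal group includes the library at 3.13 CPM that went against its label for Cdkn1b. No library stood far from the other 3 in any of the 14 groups of 4 LP libraries checked by Dixon's 95% critical value, which chance passes in about 1 group in 20.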

How the results depend on the processing

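RLE scaling and no filter on low counts left every count of calls within 1.5 times. For inhibitors other than Cdkn1b between genotypes at 9 weeks, the 1 call became 0 with the LP gates summed, 0 to 1 without single libraries (named with Cdkn3 above) and 2 with the replicate number as a block, where Cdkn1a in LP passed at −1.01 (adjusted p = 0.013). Between genotypes same-numbered libraries share only a number, and blocking is no pairing there. At 4 and 6 weeks no block for genotype could be fitted. At 6 weeks DESeq2 and the joint fit of 4 and 6 weeks each gave 1 call in place of 0. Cdkn1b was called in 1 of 7 comparisons, and in 3 by DESeq2, 3 with the numbers crossed and 0 with the gates summed.

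Between populations of 9 weeks the 11 calls, 2 of them Cdkn2a, became 17 with the paired number as a block, 7 with only the compared libraries, and 5 to 11 without single libraries, with 5 without either -/- basal library. Between basal and luminal cells, calls went from 1 to 2 by DESeq2 and 1 to 2 without single libraries at 4 weeks (2 without +/+ basal 2). At 6 weeks they went from 0 to 1 by DESeq2, without the libraries of fewest genes, and 0 to 1 without single libraries (1 without -/- luminal 2). In the E2 experiment they went from 1 to 0 without the libraries of fewest genes. Blocking by animal changed none of these 3 counts, and no call beyond those given changed with a block. Between ages the 2 calls became 4 with at least 10 counts everywhere, 6 by DESeq2 and 0 (without +/+ basal 2 of 4 weeks) to 5 (without +/+ luminal 2 of 6 weeks) without single libraries. The E2 effect between strains gave 0 to 1 without single libraries, 1 without ACI E2 luminal 2. The cause of these changes was not tested.

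Signs changed for small differences in LP between genotypes. Cdkn2b, 0.02, was −0.04 with at least 10 counts everywhere, −0.05 with only LP libraries, −0.09 with the block, −0.15 with crossed numbers and −0.61 to 0.34 without single libraries. Without single libraries Cdkn1c ranged from −0.60 to 0.11, Cdkn2a from −1.44 to 0.27, and the Cdkn3 genotype difference of LP over basal cells from −0.87 (without +/+ basal 1) to 1.44 and over mature luminal cells from −0.16 (without -/- mature luminal 1) to 1.2. With under 10 counts of Cdkn2a in 44 of 48 libraries, a small difference in it was not detectable.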
